A study of Mus musculus with 2 samples.

Results

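Cells of the mouse knee joint that express the cartilage genes Sox9 and Col2a1 together with genes of the prehypertrophic and hypertrophic growth plate are described here, first by what they expressed and then by genotype. A cell was a member of this population when its values for Sox9 and Col2a1 were above 0, at least 2 of the 5 marker genes Ihh, Col10a1, Panx3, Pth1r and Mef2c were above 0, and the osteoblast gene Bglap was at 0. The rule found 221 of 6243 cells in all. These were 160 of the 1013 Sox9+Col2a1+ cells in the control library and 61 of the 335 in the Stat3KO library. The members were thus chosen by the measured values of these 8 genes, whose levels are given as a description only.

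The study compared cells from female mice at 1 month of age by droplet sequencing of transcript 3′ ends, with 1 library for each genotype and live cells sorted for the absence of blood and endothelial surface markers. The control mice were Stat3fl/fl, with loxP sites in both copies of Stat3 and no Cre. The Stat3KO mice were Acan-Cre+/Cre;Stat3fl/fl, in which Cre under the aggrecan locus is meant to remove Stat3 in chondrocytes after tamoxifen, which the study gave shortly after birth. Per the study's methods Cre is an inducible form inserted at Acan, so the Cre-bearing mice also carry an altered Acan allele. Each library was a pool of several animals, so the spread between animals was not measured, no comparison below has a replicate check and no test was made.

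In the growth plate, chondrocytes leave the cell cycle, enlarge and change their matrix before the cartilage is mineralized and replaced by bone. Prehypertrophic cells carry Pth1r, the receptor of parathyroid hormone-related protein, and secrete Indian hedgehog (Ihh), while hypertrophic cells make type X collagen (Col10a1). Mef2c is a transcription factor that promotes this maturation, and Panx3 is a channel protein of prehypertrophic and hypertrophic cells and of osteoblasts.

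Levels are estimated UMIs (unique molecular identifiers, the molecules counted) summed over a set of cells and given as counts per 1000000 (CPM) of that sum. The control library held 4903 cells and the Stat3KO library 1340, with medians of 4344 and 3743 UMIs per cell. Members were deeper than this in both libraries, with a median of 7253 UMIs for control members (range 1940 to 21121) and of 12068 for Stat3KO members (966 to 21514). The remaining Sox9+Col2a1+ cells without Bglap, 706 and 180 in number, had medians of 4642 and 8479 UMIs and serve below as the comparison. UMIs of globin genes, which belong to red blood cells, were present in 56 of 160 control members (35.0%) and in 382 of the 706 others (54.1%), but in 0 of 61 Stat3KO members (exact 95% upper bound 5.87%). More than 5% mitochondrial counts were found in 3.12% of control and 23.0% of Stat3KO members. The libraries shared 2 cell barcodes, neither of which was a member.

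Members made up 15.8% of Sox9+Col2a1+ cells in the control library (exact 95% interval 13.6% to 18.2%) and 18.2% in the Stat3KO library (14.2% to 22.8%), and these intervals, which cover counting error only, overlapped. The share moved with depth and with globin. When each cell was thinned to 2000 UMIs, the shares were 9.87% (67 of 679 cells, 7.73% to 12.4%) and 8.95% (17 of 190 cells, 5.3% to 13.9%). When cells with a globin UMI were left out they were 20.8% (104 of 501) and 18.4% (61 of 332). The Stat3KO share was thus above the control share with all cells and below it with either restriction. The part of depth and of red blood cell RNA in the difference was not tested further.

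The Bglap criterion removed a larger share of the marker cells from the Stat3KO library. Of Sox9+Col2a1+ cells with at least 2 markers, 49 of 209 control cells (23.4%, 17.9% to 29.8%) and 36 of 97 Stat3KO cells (37.1%, 27.5% to 47.5%) had Bglap, the gene of osteocalcin, above 0. Among cells with fewer than 2 markers the shares with Bglap were 12.2% and 24.4%. The median Bglap level in the removed cells was 1.28 UMIs in the control, close to the single molecule, and 6.23 UMIs in the Stat3KO library, with highest values of 944 and 2463 UMIs. With any value of Bglap allowed, 20.6% (18.2% to 23.3%) of control and 29.0% (24.2% to 34.1%) of Stat3KO Sox9+Col2a1+ cells had at least 2 markers. The removed cells had medians of 8027 UMIs in the control and 11407 in the Stat3KO library. The part of depth in these shares was not tested.

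The population was mostly a Pth1r, Mef2c and Panx3 population. Pth1r was above 0 in 150 of 160 control members (93.8%) and 56 of 61 Stat3KO members (91.8%). Mef2c was above 0 in 85.6% and 75.4%, and Panx3 in 64.4% and 57.4%. Ihh, in contrast, was found in 18 control members (11.2%) and 8 Stat3KO members (13.1%), and Col10a1 in 14 (8.75%) and 5 (8.2%). The label of prehypertrophic cells rests on Pth1r and Panx3, which the rule used, so their shares in members do not bear it out. Pth1r was also above 0 in 19.4% of the other Sox9+Col2a1+ control cells, and Panx3 in 2.41%. Few members carried Col10a1, the defining gene of hypertrophic cells. The members are therefore called by their marker genes here.

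**Figure D1:**
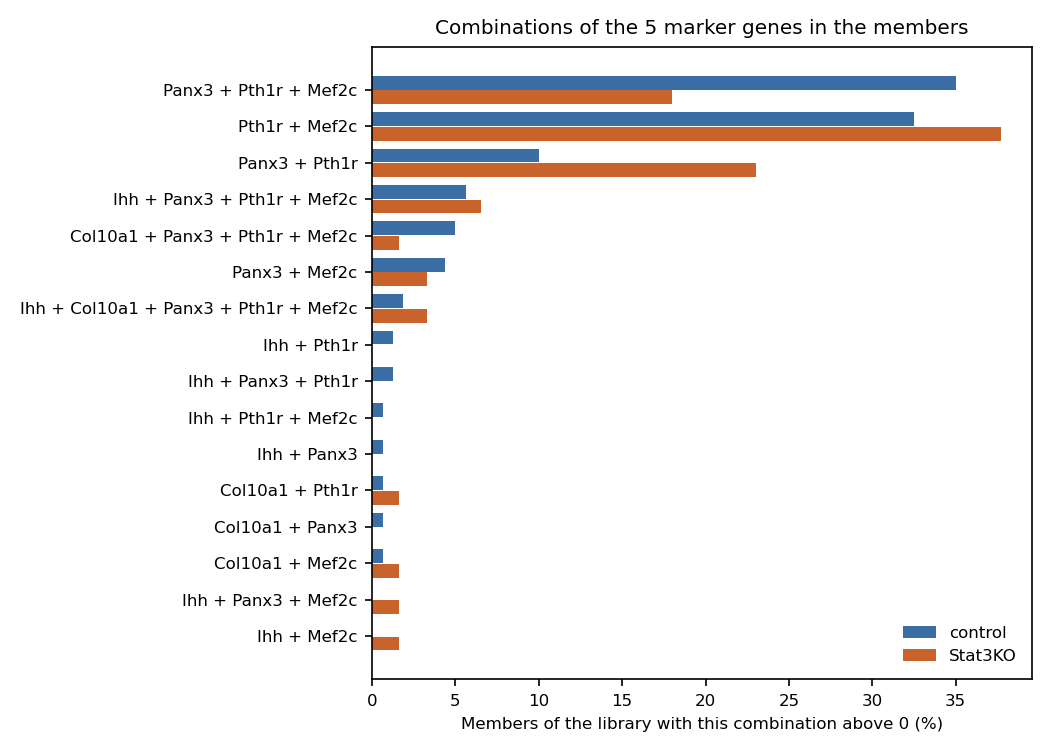
Share of the members of each library (x axis, percent) that had each combination of the 5 markers above 0 (y axis), for 160 control (blue) and 61 Stat3KO (orange) members. The 3 longest bars in each library are combinations of Panx3, Pth1r and Mef2c only.

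The markers were found together in few patterns. In the control library, 56 members (35.0%) had Panx3, Pth1r and Mef2c, 52 (32.5%) had Pth1r and Mef2c and 16 (10.0%) had Panx3 and Pth1r. For Stat3KO members the same patterns held 11 (18.0%), 23 (37.7%) and 14 members (23.0%). All 5 markers were above 0 in 3 control and 2 Stat3KO members. Of the 18 control cells with Ihh, 15 also had Panx3, 17 Pth1r and 13 Mef2c. Of the 8 Stat3KO cells with Ihh, 7 also had Panx3, 6 Pth1r and 8 Mef2c.

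These calls rest on few molecules per cell. In members where the gene was above 0, the median was 1.96 UMIs of Pth1r, 1.96 of Mef2c, 2.98 of Panx3 and 0.994 of Ihh in the control library. In control cells of the red blood lineage, which should lack these genes, Panx3 was above 0 in 0.611%, Pth1r in 0.489%, Mef2c in 2.08% and Col10a1 in 1.83% of 818 cells with a median of 5537 UMIs. In 259 fibroblast-type control cells, Mef2c was above 0 in 15.8% and Pth1r in 7.72%, so against these cells both were less particular than Panx3 (1.16%). Osteoblasts, which also carry Panx3, were not compared here. The members were also called at full depth and the cells then thinned to 2000 UMIs. Panx3 was then above 0 in 40.0% of the control members and in 0.968% of the other Sox9+Col2a1+ cells. Panx3 is part of the rule, so this contrast is set in part by it and is a description only.

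The marker genes lie on separate parts of the genome (GRCm38, Gencode M21). Panx3 is at chr9:37659902-37669235 on the minus strand, Pth1r at chr9:110722085-110747145 on the minus strand and Mef2c at chr13:83504034-83667080 on the plus strand. Ihh is at chr1:74945315-74951672 on the minus strand and Col10a1 at chr10:34389981-34397085 on the plus strand.

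Col10a1 was almost wholly the product of a few cells. In the control library 3 members held 80.8% of its UMIs and in the Stat3KO library 3 members held 99.9%, so that its summed levels of 429 and 1925 CPM describe those cells and not the populations. At least 10 UMIs were present in 5 control and 2 Stat3KO members. The control member with the most Col10a1 (186 UMIs) had 206 UMIs of Spp1, which encodes osteopontin, and 39.9 of the collagenase gene Mmp13, but only 1.4 of Col2a1. The next, with 145 and 80.4 UMIs of Col10a1, had 618 and 640 UMIs of Col2a1 and no Spp1. Both Stat3KO members with high Col10a1 (892 and 557 UMIs) had Spp1 (496 and 325 UMIs) and Mmp13 (18.8 and 38.7 UMIs), and the other 3 Stat3KO members with Col10a1 had less than 1 UMI of it. Cells with Col10a1 thus differed among themselves in whether they also carried the late genes Spp1 and Mmp13.

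The gene levels of the members were set against those of the other Sox9+Col2a1+ cells without Bglap in the same library. Of 5657 genes measured in the control library, 143 (2.53%) were at least 2-fold higher and 199 (3.52%) at least 2-fold lower in members. Of 5108 genes in the Stat3KO library, 143 (2.8%) were higher and 173 (3.39%) lower. These counts describe sets of cells that the rule drew apart and are no test of it. The median log2 ratio over all genes was -0.01 in both libraries. The libraries shared no member and no comparison cell, and among the 4777 genes measured in both, 111 were at least 2-fold higher in the control and 119 in the Stat3KO library, with 49 in common (44.1% and 41.2% of each). Of the 111, 106 (95.5%) were higher by any amount in Stat3KO members too, against 48.9% of all genes. Of 160 genes lower in control members, 141 (88.1%) were also lower in Stat3KO members, against 51.1% of all genes, and 53 were 2-fold lower in both.

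**Figure D2:**
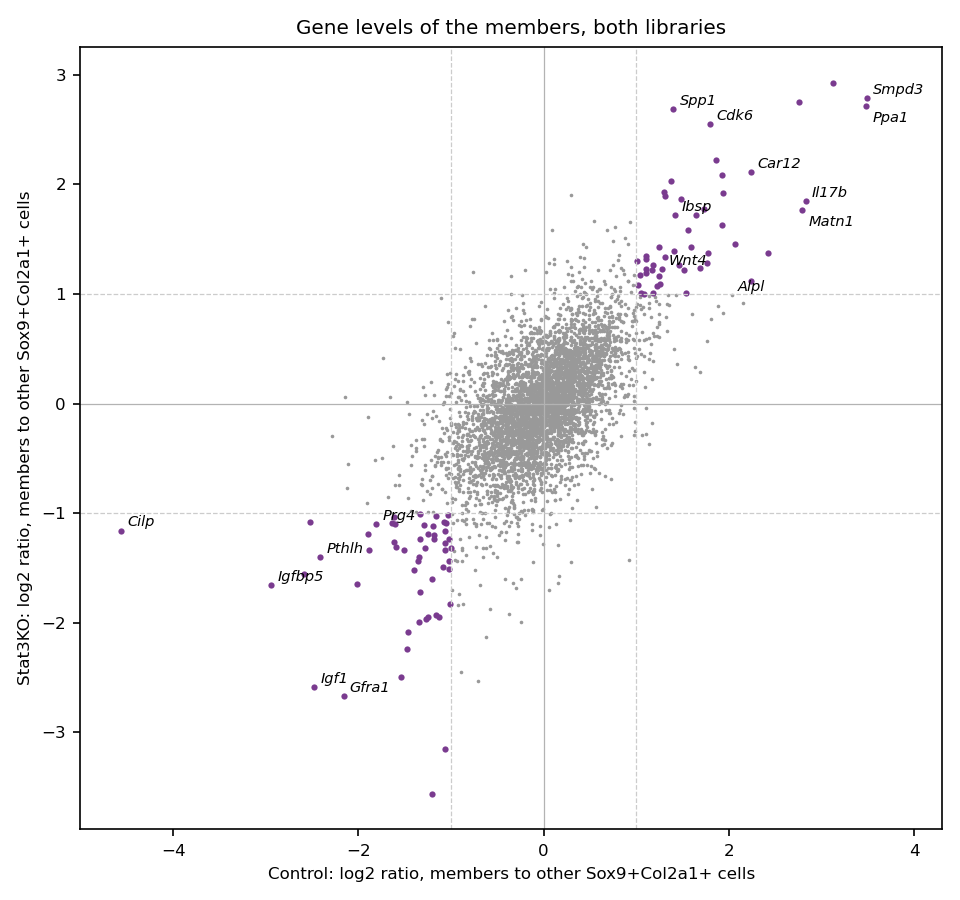
Each point is 1 of 4777 genes, with the log2 ratio of members to other Sox9+Col2a1+ cells in the control library (x axis) and in the Stat3KO library (y axis). Purple points passed 2-fold (dashed lines) in the same direction in both libraries, 49 genes at the upper right and 53 at the lower left, and selected genes are named.

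The genes that stood highest in members were led by Smpd3 and Ppa1. Smpd3 encodes a neutral sphingomyelinase that is needed for normal mineralization of cartilage and bone, and lies at chr8:106252548-106337988 on the minus strand. It was at 1111 CPM in control members and 97.8 CPM in the other cells (log2 ratio 3.49), and at 444 and 63.3 CPM in the Stat3KO library (2.79). Ppa1, the cytosolic enzyme that splits pyrophosphate, lies at chr10:61648552-61674168 on the plus strand. Its level was 1138 CPM against 101 CPM in the control (3.48) and 1765 CPM against 266 CPM in the Stat3KO library (2.72). Both stood apart at equal depth. At 2000 UMIs per cell, with members called at full depth, Smpd3 was above 0 in 58.8% of control members and 14.8% of others. Ppa1 was above 0 in 55.6% and 12.6%. The Stat3KO shares were 40.0% and 11.7% for Smpd3 and 61.7% and 24.5% for Ppa1.

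Secreted, matrix and membrane proteins followed. The cytokine gene Il17b was at 233 CPM in control members and 31.8 CPM in the others (log2 ratio 2.83), and the cartilage matrilin gene Matn1 was at 167 and 23.4 CPM (2.79). Their Stat3KO ratios were 1.85 and 1.77. Syt8, of the synaptotagmin family of membrane proteins, had ratios of 2.62 and 1.79, and Car12, a carbonic anhydrase of the cell surface, of 2.24 and 2.11. Fxyd2, a regulator of the sodium-potassium pump, was at 431 against 113 CPM in the control (1.92), and Slc8a3, a sodium-calcium exchanger, at 116 against 29.7 CPM (1.93), with Stat3KO ratios of 1.63 and 2.09. These genes were thus higher in members in both libraries at the depths as sequenced. After thinning, the 17 Stat3KO members left did not keep the direction for Syt8 or Matn1 (log2 ratios -4.08 and -0.83), while the 67 control members did. With the members called at full depth and then thinned, Matn1 was above 0 in 16.7% of 60 Stat3KO members and 6.75% of 163 others, and Syt8 in 6.67% and 1.23%.

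Other genes among the 15 with the highest control ratios covered several functions. Alkaline phosphatase (Alpl), which releases phosphate for mineralization, was at 186 against 44.9 CPM in the control (2.03) and had a Stat3KO ratio of 0.99. Cdk6, a kinase of the entry into the cell cycle, had ratios of 1.80 and 2.55. Lbh, a transcription cofactor, had ratios of 2.24 and 1.12, and Fkbp11, a peptidyl-prolyl isomerase gene of the secretory pathway, of 1.94 and 1.92. The less characterized Wscd2 had ratios of 2.07 and 1.46. The Riken transcripts 2700038G22Rik and C430049B03Rik had ratios of 2.76 and 1.77 in the control and of 2.75 and 1.37 in the Stat3KO library.

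The 10 lowest control ratios included genes of articular cartilage and of the insulin-like growth factor (IGF) axis. Cilp, a matrix protein gene of articular cartilage and fibrocartilage, was at 9.07 CPM in control members and 237 CPM in the others (log2 ratio -4.56), with a Stat3KO ratio of -1.16. Igfbp5, an IGF binding protein gene, was at 87.3 and 676 CPM (-2.94), and Igf1 at 113 and 636 CPM (-2.48), with Stat3KO ratios of -1.66 and -2.59. Pthlh, the gene of the Pth1r ligand, was at 9.71 and 56.1 CPM in the control (-2.41) and had a Stat3KO ratio of -1.40. Pth1r itself was used to choose the members, so its higher level in them is set by the rule and no contrast with Pthlh is drawn.

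Msmp had the lowest control ratio (-5.58), but 72.0% of its UMIs in the other cells came from 3 cells. Smoc1, a matricellular protein gene, was at 33.1 against 194 CPM (-2.52), and Gfra1, a receptor gene for glial cell line-derived neurotrophic factor, had ratios of -2.16 and -2.67. The noncoding RNA Meg3 was at 439 against 1649 CPM (-1.91) and the chemokine gene Cxcl14 at 97.1 against 364 CPM (-1.89). Thbs4, a thrombospondin gene of tendon and cartilage, had a control ratio of -1.90 but a Stat3KO ratio of -0.12. Osmr, the receptor gene for oncostatin M, was at 30.2 against 110 CPM (-1.83). All 25 of these highest and lowest genes kept their direction in the control library under the 14 other ways of choosing, filtering or scaling the cells, and 23 stayed past 2-fold in each.

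The position of the cells between 1 and 2 markers shows where the rule drew its line. Sox9+Col2a1+ cells without Bglap numbered 430 with 0 markers, 276 with 1, 81 with 2 and 79 with 3 or more in the control library, and 105, 75, 42 and 19 in the Stat3KO library. Cells just outside the rule, with 1 marker, had Smpd3 at 110 CPM, and those just inside, with 2, had it at 328 CPM, but cells with at least 3 markers had 1715 CPM. Ppa1 was at 142, 439 and 1677 CPM over the same steps, Il17b at 44.2, 148 and 298 CPM and Matn1 at 30.5, 80.4 and 234 CPM. Depth was also higher along the same steps, with medians of 5131, 5744 and 8097 UMIs per cell, and its part was not tested here beyond the thinned values above.

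**Figure D3:**
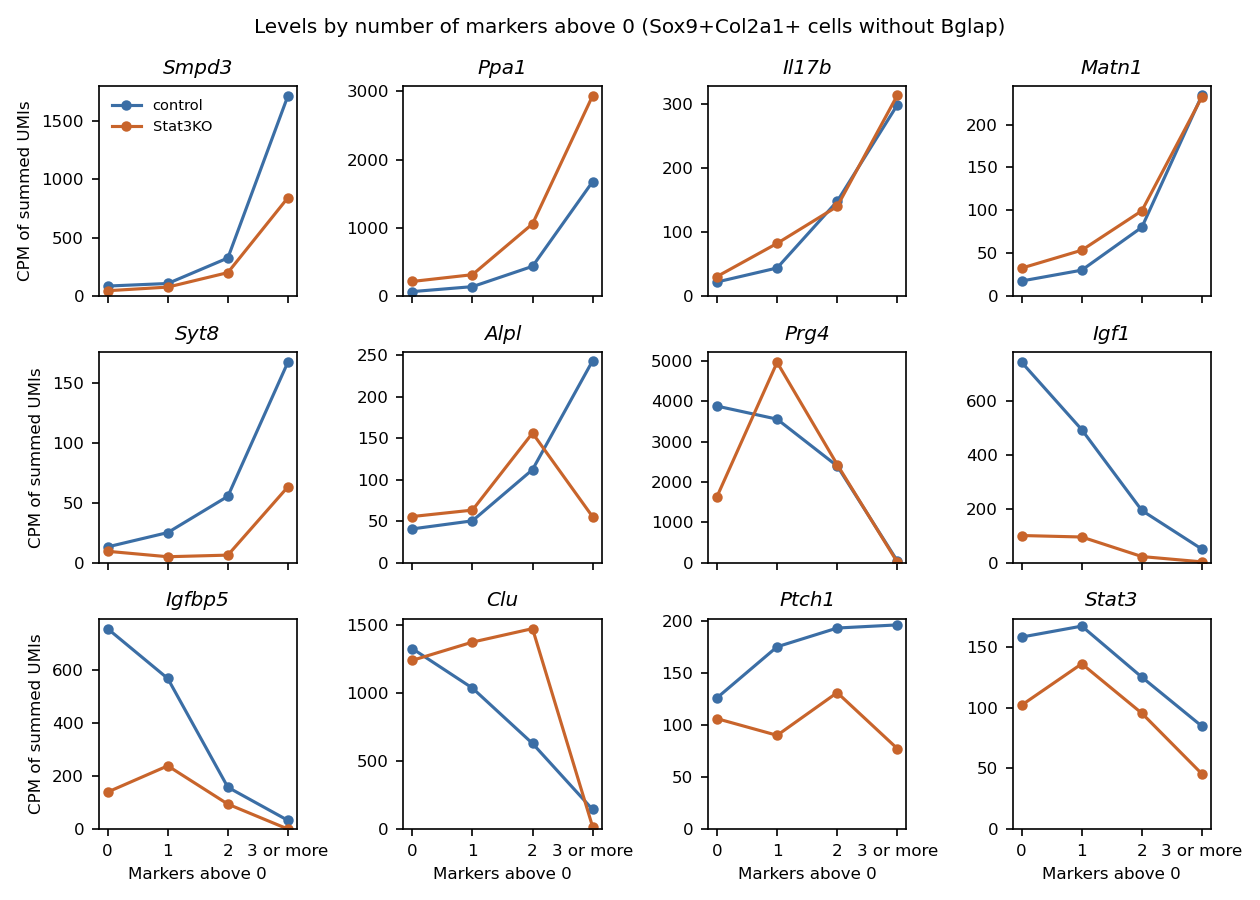
Level of 12 genes (y axis, CPM of summed UMIs) by the number of markers above 0 (x axis) in Sox9+Col2a1+ cells without Bglap, for the control (blue) and Stat3KO (orange) libraries. Smpd3, Ppa1, Il17b and Matn1 were highest in cells with 3 or more markers, where Prg4, Igf1 and Igfbp5 were lowest in both libraries.

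Members with exactly 2 markers were mixed. Prg4, which encodes the lubricin of the joint surface, was at 3876 CPM with 0 markers, 3553 with 1, 2394 with 2 and 46.0 with 3 or more in the control library. The share of cells with Prg4 was 40.7%, 38.8%, 19.8% and 3.80%. Stat3KO cells had Prg4 at 1637, 4959, 2430 and 14.8 CPM. Clu, the clusterin gene of resting and articular cartilage, was at 629 CPM with 2 markers and 144 CPM with at least 3 in the control, and at 1473 and 17.2 CPM in the Stat3KO library. Cilp was at 20.8 CPM with 2 markers and 0 with at least 3 in the control, and at 114 and 3.34 CPM in the Stat3KO library. Col1a1, the type I collagen gene of bone and fibrous tissue, was above 0 in 39.5% of control members with 2 markers and 10.1% of those with at least 3, at 4215 and 2333 CPM. Members with at least 3 markers thus had lower Prg4, Clu and Cilp than members with 2 in both libraries, although Prg4 was still above 0 in 26.3% of the 19 Stat3KO cells.

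Markers of other cell types were counted in the members. At least 3 of 11 osteoblast markers were above 0 in 31 control members (19.4%) and 13 Stat3KO members (21.3%), against 12.7% and 17.8% of the other cells, with summed levels of 7900 and 4883 CPM in members and 8575 and 3962 CPM in the others. The list holds Ibsp, Col1a1 and Sp7, which maturing chondrocytes and bone cells can share. At least 3 of 9 fibroblast markers were above 0 in 25.6% and 44.3% of members, against 48.7% and 49.4% of the others. At least 3 of 7 tendon and ligament markers were above 0 in 8.12% and 16.4% of members, against 20.1% and 25% of the others. No member reached 3 markers of marrow stroma, endothelium, neutrophils, macrophages and osteoclasts, lymphoid cells or Schwann cells. Mural markers reached 3 in 3 control members, erythroid markers in 6 control members and skeletal muscle markers in 1 Stat3KO member. The part of doublets in these counts was not tested. A doublet caller marked 3 control members and no Stat3KO member.

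Gene groups were described by the number of members of the group on each side and by the group's median log2 ratio, beside 48.8% of all genes higher in control members and 49.1% in Stat3KO members. The cartilage matrix as a whole was retained. Of 22 matrix genes measured, 16 were higher in control and 19 in Stat3KO members, 3 and 2 of them at least 2-fold, with medians of 0.57 and 0.50. The aggrecan gene Acan was at 5339 CPM in control members and 3787 CPM in the others (0.50), and Hapln1, which links aggrecan to hyaluronan, at 4304 and 1871 CPM (1.20). Col11a1 was at 13475 and 7915 CPM (0.77), and Epyc, which encodes a small proteoglycan of growth cartilage, at 454 and 145 CPM (1.64), with Stat3KO ratios of 0.43 and 1.72. The glycosaminoglycan group, which builds and sulfates the chains of aggrecan, had 14 of 19 genes higher in the control and 14 of 20 in the Stat3KO library, with medians of 0.34 and 0.23, and the sulfate transporter gene Slc26a2 was at 479 against 217 CPM (1.14).

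Genes of collagen folding and the secretory route were more often higher in members, 24 of 28 in the control (median 0.50) and 20 of 27 in the Stat3KO library (median 0.33). The collagen chaperone gene Serpinh1 was at 1992 against 994 CPM, and the prolyl hydroxylase gene P4ha2 at 248 against 104 CPM (1.25). Hspa5, the main chaperone of the endoplasmic reticulum, was at 1923 against 1918 CPM, a ratio of 0.00, and Xbp1, a transcription factor of the unfolded protein response, at 251 against 250 CPM. The general chaperone genes Calr and Canx were at 773 against 532 CPM (0.54) and 489 against 342 CPM (0.51).

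Glycolysis was the group with the most genes at least 2-fold higher in control members. Of 20 glycolysis and hypoxia genes, 15 were higher in control members and 7 at least 2-fold higher, with a median of 0.90. Ldha, which turns pyruvate into lactate, was at 970 against 334 CPM (1.54), Pgk1 at 416 against 175 CPM (1.25), Eno1 at 535 against 230 CPM (1.21), Gapdh at 750 against 354 CPM (1.08) and the lactate exporter gene Slc16a3 at 77.3 against 21.3 CPM (1.81). In Stat3KO members 14 of 19 were higher but only 1, Ldha (1.01), past 2-fold, with a median of 0.27. Vegfa, a hypoxia target and the main growth factor of blood vessels, was not higher (115 against 173 CPM, -0.58). Ldha was higher with more markers too, at 294, 386, 569 and 1279 CPM over 0, 1, 2 and at least 3 markers in the control.

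Among genes of mineralization and late hypertrophy, 4 of 10 were at least 2-fold higher in control members, namely Smpd3, Alpl, Ibsp and Spp1, while the other 6 were lower in members by any amount and the group's median was -0.29. In Stat3KO members 3 of 10 were at least 2-fold higher and the median was 0.06. Ibsp, the bone sialoprotein gene, was at 897 against 335 CPM (1.42) and Spp1 at 417 against 158 CPM (1.40) in the control, with 50.4% and 67.2% of the member UMIs from 3 cells. Over 0, 1, 2 and at least 3 markers, Ibsp was above 0 in 11.2%, 21.4%, 32.1% and 8.86% of control cells. The shares with Spp1 were 13.7%, 11.6%, 17.3% and 7.59%, so both genes were found least often in cells with at least 3 markers. Phospho1, the phosphatase of matrix vesicles, was at 12.3 against 1.14 CPM, below the filter on low levels.

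The transcription factors of maturation did not stand out as a group, with 5 of 15 higher in control members (median -0.24) and 4 of 13 in Stat3KO members (median -0.11). Runx2 and Runx3, which drive hypertrophy, were at 133 against 68.6 CPM (0.94) and 162 against 82.6 CPM (0.97) in the control, with Stat3KO ratios of 0.22 and 0.58. Sp7, the osterix gene, was low but found in 15% of control members and 1.42% of the others, at 25.6 and 3.02 CPM. The study's hypertrophic set, taken per its text from a published growth plate data set and known regulators, had 7 of its 8 measured genes outside the rule higher in control members (median 0.66) and 8 of 10 in Stat3KO members (0.29). The study's proliferative set had 3 of 10 higher in each library, with medians of -0.28 and -0.16.

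The signalling groups were mostly lower in members. Of 10 hedgehog pathway genes, 8 were lower in the control (median -0.83) and 6 of 8 in the Stat3KO library (-0.64). The receptor and target gene Ptch1 was within 2-fold (195 against 147 CPM, 0.40), while Hhip, which binds and sequesters hedgehog proteins, was at 103 against 202 CPM (-0.96). Gas1, a co-receptor, had ratios of -1.60 and -0.74. In the FGF group 6 of 7 genes were lower in the control (median -0.67) and 7 of 9 in the Stat3KO library (-0.61). The exception was Fgfr3, the receptor that restrains growth plate chondrocytes, at 280 against 122 CPM (1.19), with a Stat3KO ratio of 0.62. Fgfr1 was on the other side, at 153 against 283 CPM (-0.88). Members thus had more Fgfr3 than Fgfr1 relative to the other cells.

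The IGF axis was lower in 11 of 12 genes in the control and 11 of 11 in the Stat3KO library, with a median of -0.87 in both. Igf2 was at 163 against 453 CPM (-1.47, Stat3KO -2.24) and Igfbp4 at 52.3 against 135 CPM (-1.35, Stat3KO -1.99). The receptor gene Igf1r was at 108 against 115 CPM, a ratio of -0.10, so the lower values were those of ligands and binding proteins. Igf1 and Igfbp5 were above 0 in 74.1% and 79.5% of 259 fibroblast-type control cells, against 40.5% and 35.0% of the other Sox9+Col2a1+ cells. The part of fibroblast-type RNA in the IGF ratios was not tested. WNT pathway genes were lower in 8 of 11 (median -0.37) and 9 of 13 (-0.34), although Wnt4, a WNT ligand of prehypertrophic cells, was at 70.2 against 28.3 CPM (1.28, Stat3KO 1.23). BMP and TGF-beta genes were divided, with 8 of 19 higher in each library and medians of -0.13 and -0.27. In the gp130 and STAT3 pathway 9 of 11 genes were lower in the control (median -0.41) and 8 of 12 in the Stat3KO library (-0.34). Stat3 itself was at 102 CPM in control members and 162 CPM in the others (-0.66), and at 76.5 and 119 CPM in the Stat3KO library (-0.63).

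Resting and articular cartilage genes were lower in members. All 10 measured resting zone genes were lower in the control, 7 of them at least 2-fold (median -1.26), and all 11 in the Stat3KO library, 3 of them at least 2-fold (median -0.68). The WNT inhibitor gene Sfrp5 was at 20.7 against 64.7 CPM (-1.59) and Apoe at 365 against 922 CPM (-1.33). Of 12 articular cartilage genes, 11 were lower in the control (median -1.26) and 8 in the Stat3KO library (median -0.36). Prg4 was at 1068 against 3736 CPM (-1.81, Stat3KO -1.10). Chondrogenic factors were lower in 11 of 13 and 9 of 13 (medians -0.40 and -0.14). Matrix proteases and their inhibitors had medians of -0.06 and -0.48.

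G2/M genes of the cell cycle were not on the same side in both libraries. Of these genes, 18 of 25 were higher in control members, 1 of them at least 2-fold (median 0.31), but 4 of 11 in Stat3KO members (median -0.20). Of S-phase genes 5 of 14 and 2 of 6 were higher, with medians of -0.09 and -0.20. Mki67, a gene of cycling cells, was at 201 against 221 CPM in the control. Genes of cell cycle exit were divided (5 of 13 and 6 of 12 higher), with Cdkn1c, an inhibitor of cyclin-dependent kinases, at 638 against 461 CPM (0.47, Stat3KO 0.61). Stress genes that respond to tissue dissociation were lower in 12 of 19 and 17 of 19 genes, with medians of -0.14 and -0.30.

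Within the population, members with Ihh or Col10a1 above 0 were set against the rest. They were 29 of 160 in the control (18.1%, median 7735 UMIs against 7236) and 11 of 61 in the Stat3KO library (18.0%, median 16201 against 10892). They are called later members below as a label for Ihh or Col10a1 above 0. A later stage was not shown, and Ihh is also a gene of prehypertrophic cells. In the control library 77 of 2915 genes (2.64%) were at least 2-fold higher and 48 (1.65%) at least 2-fold lower in these later members. In the Stat3KO library 142 of 2691 (5.28%) were higher and 151 (5.61%) lower, with fewer cells behind each value. Higher by any amount were 50.4% of genes in the control and 56.7% in the Stat3KO library. Markers of mural cells, which surround vessels, were also higher in the later control members, at 513 against 86.0 CPM summed over 8 markers, and 3 cells gave 97.4% of the Acta2 and 97.6% of the Tagln UMIs. Their part in this comparison was not tested.

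Of 11 genes of mineralization and late hypertrophy, 6 were higher in the later control members, 5 of them at least 2-fold, and 5 were lower by any amount, with a median of 0.37 and a log2 ratio of the summed levels of -0.08. Spp1 was at 1610 against 135 CPM (log2 ratio 3.57), Alpl at 606 against 86.4 CPM (2.80) and Mmp13 at 276 against 42.6 CPM (2.67). Without the 3 members of most Col10a1 the ratios were 2.60, 2.50 and 1.44. The genes were nevertheless held by few cells, since the 3 later members highest in each gene gave 85.2% of the Spp1, 45.2% of the Alpl and 100% of the Mmp13 UMIs. Smpd3 was at 1893 against 926 CPM (1.03, and 1.01 without the 3) and Sgms2, a sphingomyelin synthase gene, at 867 against 239 CPM (1.86 and 1.68). Cdkn1c was at 1133 against 521 CPM (1.12 and 0.93) and the noncoding transcript C430049B03Rik at 187 against 60.1 CPM (1.62 and 1.51). The transcription factor gene Sox4 (1.92 and 1.11) was also higher. Runx2 was at 148 against 129 CPM and Sp7 at 21.6 against 26.6 CPM, so neither marked the later members of this library.

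**Figure D4:**
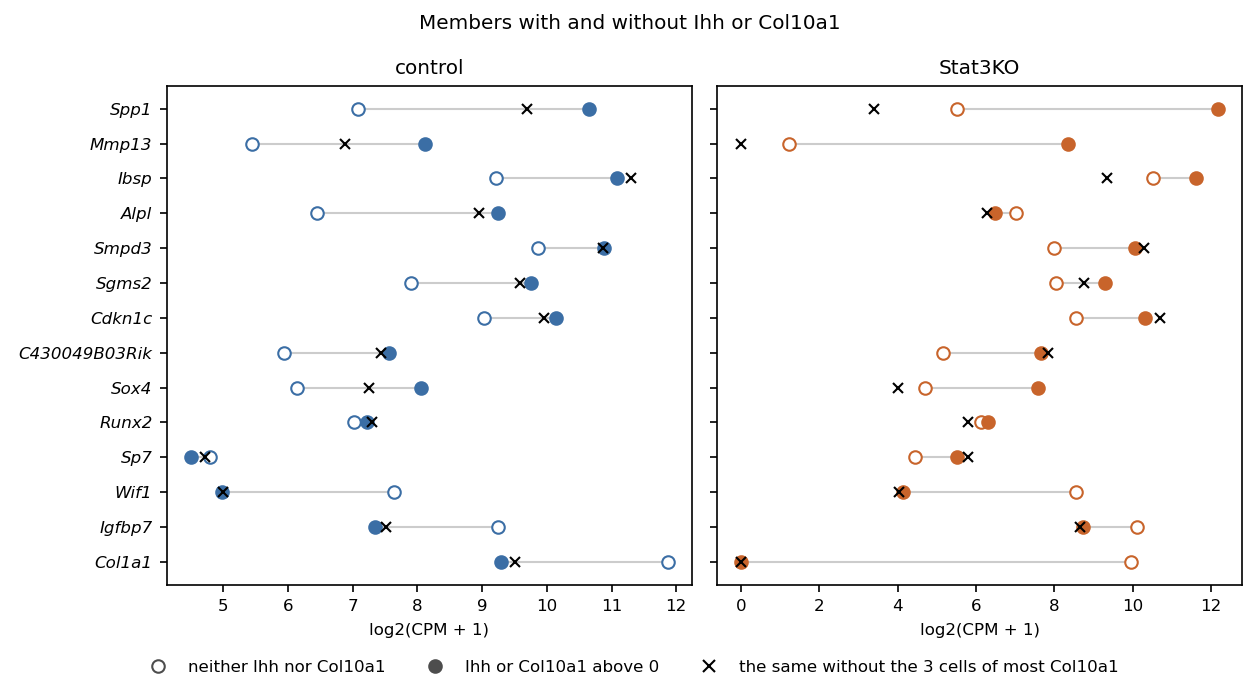
Levels of 14 genes (x axis, log2 of CPM + 1, with its own range in each panel) in members with neither Ihh nor Col10a1 (open circles) and in members with either (filled circles), for each library. Crosses give the latter without the 3 cells of most Col10a1, and in the Stat3KO panel the crosses of Spp1, Mmp13, Ibsp and Sox4 fall to the left of the open circles.

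In the Stat3KO library the late genes belonged to the cells of most Col10a1. Spp1 was at 4653 against 44.4 CPM in the later members but at 9.59 CPM without those 3 cells, and Mmp13 at 325 against 1.35 CPM but at 0 without them. Smpd3 (2.05, and 2.28 without the 3), Cdkn1c (1.76 and 2.14) and C430049B03Rik (2.52 and 2.68) were higher either way, as in the control. These values rest on 11 later members, or 8 without the 3. The 3 later Stat3KO members highest in each gene gave 66.0%, 71.1% and 77.9% of its UMIs. Alpl was not higher (88.8 against 128 CPM, -0.52). Lower in the later members of both libraries were the WNT inhibitor gene Wif1 (30.6 against 198 CPM in the control, -2.65, and -4.41 in the Stat3KO library) and Igfbp7 (162 against 604 CPM, -1.89, and -1.36). Col1a1 was at 624 against 3751 CPM in the control and at 0 against 995 CPM in the Stat3KO library.

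Members were also compared with the marker cells that Bglap removed. In the control library 23 of 2881 genes (0.798%) were at least 2-fold higher and 29 (1.01%) at least 2-fold lower in members, so the 49 removed cells were close to the members in most genes. Of 5 osteoblast markers measured, 2 were at least 2-fold lower and 1 at least 2-fold higher in members, with a median of -0.45. The 1 marrow stroma marker measured was lower. Cxcl12, a chemokine of marrow stroma, was at 2.38 against 248 CPM (-6.20) and Igfbp5 at 87.3 against 388 CPM (-2.14). Bglap2 and Bglap3 were at 6.61 against 440 CPM and 6.15 against 317 CPM, but these near-identical copies of Bglap can share reads with it and their split is uncertain. In the Stat3KO library the removed cells stood farther apart, with 95 of 2598 genes (3.66%) higher and 122 (4.7%) lower in members. Higher by any amount were 52.9% of genes in control and 59.5% in Stat3KO members. Col1a1 was at 762 CPM in Stat3KO members and 22339 CPM in the 36 removed cells (-4.87), and the removed cells had a median of 36.9 UMIs of Col2a1 against 457 in members.

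The question of the genotype comparison is what the deletion of Stat3 does to these cells, and the targeted gene is given first. Stat3 (chr11:100885098-100939540, minus strand) was at 102 CPM in control and 76.5 CPM in Stat3KO members, a log2 ratio of -0.41, and at 162 and 119 CPM in the other Sox9+Col2a1+ cells (-0.44). Reads from the 3′ end of a transcript do not tell molecules with the floxed exons from those without. The median log2 ratio over all 2788 genes measured in members was -0.12, and differences are to be read relative to it. At least 2-fold higher in Stat3KO members were 119 genes (4.27%) and at least 2-fold lower 166 (5.95%). With median-of-ratios scaling the split was 183 higher and 95 lower, so the balance of directions depends on the scaling. In the other Sox9+Col2a1+ cells 87 of 2806 genes (3.1%) were higher and 108 (3.85%) lower. Cell numbers, depth and the shares of globin and mitochondrial counts given above differ between the libraries along with genotype and cannot be told apart from it.

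**Figure D5:**
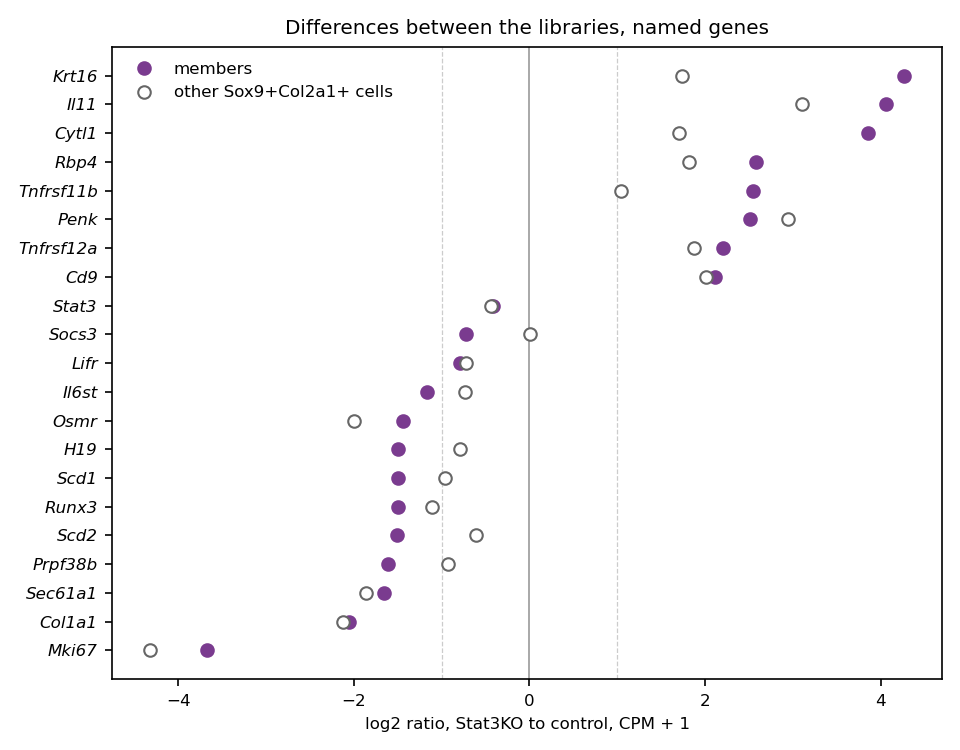
Log2 ratio of Stat3KO to control (x axis, on CPM + 1) for 21 genes (y axis) in members (filled purple circles) and in other Sox9+Col2a1+ cells (open circles), 1 library per genotype. Dashed lines mark 2-fold, and every gene that passed 2-fold in members was on the same side in the other cells.

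Of the gp130 and STAT3 pathway, 6 of 7 measured genes were lower in Stat3KO members, 1 of them at least 2-fold, and Il11 was at least 2-fold higher. The group's median of -0.14 was close to the -0.12 of all genes. Il6st, which encodes gp130, was at 104 CPM in control and 46.0 CPM in Stat3KO members (log2 ratio -1.16), against -0.73 in the other cells. Lifr and Osmr were below the filter of 50 CPM, with ratios of -0.79 (others -0.72) and, at 30.2 and 10.5 CPM, of -1.44 (others -2.0). Socs3, a feedback inhibitor and target of STAT3, was at 85.3 and 51.3 CPM (-0.72), against 0.01 in the other cells. Il11, a cytokine that signals through gp130, was in contrast at 20.7 and 361 CPM (4.06, others 3.10), and was found in 8.75% of control and 49.2% of Stat3KO members. Whether the ratios differ between members and other cells was not tested here or in the genes that follow.

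The 8 highest ratios among genes of at least 100 CPM were those of Krt16, Il11, Cytl1, Rbp4, Tnfrsf11b, Penk, Tnfrsf12a and Cd9. The values of Il11 are given above. Among the others were Cytl1, a secreted protein of cartilage (49.2 and 726 CPM, log2 ratio 3.86), Rbp4, the retinol carrier (87.5 and 527 CPM, 2.58), and Tnfrsf11b, which encodes osteoprotegerin (50.8 and 302 CPM, 2.55). In these 3 genes 56.4%, 52.1% and 62.3% of the Stat3KO UMIs came from 3 members. The keratin gene Krt16 (12.4 and 258 CPM, 4.27) and the enkephalin precursor gene Penk (39.9 and 231 CPM, 2.51) rested on 3 members for 71.9% and 72.8%. The ratio of Penk was -1.02 when 3 markers were required. More evenly spread over the members were Cd9, a tetraspanin (304 and 1327 CPM, 2.12), and Tnfrsf12a, the receptor of the cytokine TWEAK (98.1 and 454 CPM, 2.20), with 13.8% and 17.5% from 3 members. Their ratios in the other cells were 2.01 and 1.88.

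The 8 lowest ratios among genes of at least 100 CPM were those of Mki67, Col1a1, Sec61a1, Prpf38b, Scd2, Runx3, H19 and Scd1. Mki67 was at 201 CPM in control and 14.8 CPM in Stat3KO members (-3.67), against -4.32 in the other cells, and G2/M genes were lower in 8 of 9 (median -0.74, others -0.54). Scd1 and Scd2, which desaturate fatty acids, were at 365 and 129 CPM (-1.49) and 657 and 230 CPM (-1.51). Runx3 was at 162 and 56.9 CPM (-1.50, others -1.11), Sec61a1, of the translocation channel of the endoplasmic reticulum, at 434 and 137 CPM (-1.66), Prpf38b, of the splicing machinery, at 211 and 68.3 CPM (-1.61), and the imprinted RNA H19 at 743 and 264 CPM (-1.49). Col1a1 was at 3152 and 762 CPM (-2.05), but its ratio was 1.26 when cells with Bglap were kept, so its direction depends on that criterion.

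The genes that marked the population were not uniformly higher or lower in Stat3KO members. Smpd3 had a log2 ratio of -1.32, Syt8 of -2.05, Car12 of -1.33 and Ldha of -1.02, whereas Ppa1 had a ratio of 0.63. Acan was at 5339 and 2008 CPM (-1.41, others -1.21). The Stat3KO mice carry Cre at this locus, and the part of the altered allele cannot be told apart from that of the Stat3 deletion or the library. Among the rule's genes, as a description, Panx3 was at 375 and 160 CPM, Pth1r at 511 and 280 CPM, Mef2c at 394 and 214 CPM and Ihh at 24.1 and 31.7 CPM. The rule admits a cell at any marker value above 0, and Stat3KO members were deeper, with a median of 12068 against 7253 UMIs. The lower levels of Panx3, Pth1r and Mef2c in Stat3KO members are therefore not read as a result about genotype. The part of depth in them was not tested.

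By group, beside 41.2% of all genes higher in Stat3KO members and 40.0% in the other cells, glycolysis and hypoxia genes were lower in 16 of 19 (median -0.55, others -0.05), and the IGF axis in 8 of 9 (-0.68, others -0.24). Collagen folding genes were lower in 20 of 26 (-0.37, others -0.21) and glycosaminoglycan genes in 13 of 14 (-0.22, others -0.31). Resting zone genes were higher in 6 of 7 (median 0.64, others 0.25) and articular cartilage genes in 6 of 8 (0.53, others -0.20). Members with exactly 2 markers were a larger share in the Stat3KO library (42 of 61, against 81 of 160). The part of this share in any of the group values here was not tested. In cells with 3 or more markers, control and Stat3KO levels were 46.0 and 14.8 CPM for Prg4, 144 and 17.2 CPM for Clu, and 0 and 3.34 CPM for Cilp. The study's hypertrophic set, again without its genes in the rule, had a median of -0.11 over 5 genes (others 0.44) and its proliferative set of 0.02 over 9 (others -0.20). Mineralization genes were higher in 7 of 10 (median 0.34, others 0.13), with Spp1 at 417 and 1126 CPM, of which 98.1% of the Stat3KO UMIs came from 3 members. Dissociation stress genes had a median of 0.01 over 19 genes (others 0.05).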

How the data were processed

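Single-cell 3′ libraries of knee cells were analysed, 1 per genotype, with groups taken from the genotype labels. The authors aligned reads with STAR (2.7.3a) to mm10 in Partek, with R 4.0.3 also named in the submitters' processing notes, dropped duplicate UMIs, took cells by a knee plot and then corrected for ambient RNA. The deposited gene values, 32245 per cell, are log2(CPM + 1). Per cell, the deposited total is an estimated count, no longer whole once ambient RNA is subtracted. The mitochondrial share is deposited as a percent, and the number of expressed genes as a score per cell. Cells above the 5% mitochondrial limit that the methods name are in the tables, whose cell numbers are slightly below those stated by the study. A text column of the authors marks 65.0% of control and 100% of Stat3KO members and was not used.

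UMIs were recovered from each value and the cell's total, and 74.9% of the control and 97.3% of the Stat3KO values above 0 lay within 0.1 of a whole number, so no count test was used. UMIs were summed over cells (1190079 for control and 753961 for Stat3KO members) and given as CPM, and log2 ratios used a pseudocount of 1 CPM. A gene was measured when above 0 in at least 10% of either set of cells with a mean of at least 20 CPM for members against others, and 50 CPM in the other contrasts. The genes of the rule were left out of these counts and of the lists. Shares have exact Clopper-Pearson intervals, which cover counting error only. Depth limits detection: with medians of 7253 and 12068 UMIs, a gene of 1 molecule per cell is often missed. Named genes were those of the rule, Stat3, Il6st, Lifr, Osmr and Socs3, the 15 highest and 10 lowest control ratios (mean of at least 50 CPM), the 8 highest and 8 lowest genotype ratios (at least 100 CPM) and list members, and others were named after their values were seen. The members and lists were chosen with earlier results of these data known. Doublets were called with Scrublet in scanpy 1.11.5, which marked 74 control cells (1.51%) and 2 Stat3KO cells (0.149%), a rate at which the caller cannot be said to have worked in the latter, and they were kept. The calculation was tested on simulated data. The values of 1 gene are not reported here. Coordinates are from Gencode M21 on GRCm38, another release than the authors used. Python 3.11.15, numpy 2.4.6, pandas 2.3.3, scipy 1.17.1 and matplotlib 3.10.9 were used.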

Additional observations from a re-analysis of the deposited data

How the results depend on the processing

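No paired analysis was possible because each genotype has 1 library. The alternatives changed 1 choice at a time, and the one that allows any Bglap value, as well as leaving out the 3 cells of most Col10a1, was added after seeing the data. The share of members (15.8% control, 18.2% Stat3KO) was 7.8% and 5.67% with at least 3 markers, 9.87% and 10.1% without Mef2c as a marker, 18.4% and 24.6% with a minimum of 2 UMIs for both Sox9 and Col2a1, 9.87% and 8.95% after thinning, and 20.6% and 29.0% with any Bglap. It was 23.7% in the Stat3KO library with at least 10 UMIs of Col2a1 and 20.8% in the control without globin. The genes 2-fold higher and lower in members were, for the control (143 and 199) and then the Stat3KO library (143 and 173), 266 and 517, then 415 and 519, with at least 3 markers. Without Mef2c they were 242 and 453, then 305 and 489, with a pseudocount of 10 CPM 91 and 98, then 70 and 100, and with no filter on low levels 792 and 1607, then 1399 and 2135. Without globin cells they were 232 and 335 in the control. After thinning, 262 were higher in the control, and 885 were higher and 650 lower in the Stat3KO library, where 17 members were left. The genotype counts (119 higher, 166 lower) were 395 and 517 after thinning, 1487 and 2750 with no filter and 183 and 95 with median-of-ratios scaling. Of the values of single genes recomputed, 815 stayed close to the reported value, 173 moved and 6 changed direction. These were the genotype ratio of Penk with at least 3 markers (-1.02) and of Col1a1 with any Bglap (1.26), and the thinned Stat3KO ratios of members to others of 2700038G22Rik (-0.48), Matn1 (-0.83), Osmr (0.60) and Syt8 (-4.08). The cause of these changes was not tested. Of the named genes past 2-fold, all 25 kept direction and 23 stayed past 2-fold in every alternative for members against others in the control, 18 and 10 of 22 did so in the Stat3KO library, and 16 and 10 of 18 did so between genotypes. With 1 pooled library per genotype, no value here separates genotype from animal, sort, depth or cell quality, and 3 cells can set the level of Col10a1, Spp1, Ibsp, Mmp13, Krt16 or Penk.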
